A study of Arabidopsis thaliana with 9 samples.

Results

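The genes described here are 10 Arabidopsis genes grouped as responding rapidly to stress, wounding or touch. They are STZ (AT1G27730), AT1G77640, CML38 (AT1G76650), PUB23 (AT2G35930), AT1G72416, AT2G24600, AT5G39580, AT1G07135, AT1G19380 and AT1G25400. Each has 1 probe set that is annotated to it alone, so they are 10 of the 28501 probe sets on the array and 10 of the 16722 that carry a single gene. Transcripts were measured in ssrp1-2 mutants, in spt16-1 mutants and in Col-0 wild type, and all plants are labelled as ecotype Col-0. The labels do not describe the alleles further, and the levels of SSRP1 and SPT16 were not analysed here. Each genotype had 3 arrays of RNA from aerial parts harvested at day 10 from 0.5 MS plates, and each RNA came from several pooled plants (100 mg). The arrays are labelled as biological replicates. Whether the pools were sown separately is not stated, and the p-values rest on the spread among these pools, which may be technical. No stress, wound or touch treatment is labelled for any group.

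SSRP1 and SPT16 form FACT, a histone chaperone that loosens and rebuilds nucleosomes as RNA polymerase II passes. Rapid response genes are transcribed soon after a calcium, mechanical, cold, osmotic or pathogen signal, and their level in undisturbed plants is lower than after it. Their products include transcription factors such as the zinc finger repressor STZ, calcium sensors of the calmodulin-like family, ubiquitin ligases of the U-box family and enzymes of the cell wall. The comparison asks how the levels of these transcripts differ when either FACT subunit is affected.

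The members were picked with their values on these same arrays already known, and all of them stand higher in ssrp1-2. Their differences between genotypes are therefore given as a description with an error, no p-value is printed for them, and the count of members called in the fit below is no evidence about them. Values are log2 expression from RMA, a method that subtracts background, brings arrays to a common distribution and summarises probes. Array medians lay between 4.95 and 4.98, and the correlation over probe sets between arrays of the same genotype was 0.992 to 0.994. The lowest 25% of all values lay below 3.13, a level at which no signal above background was shown. In whole aerial parts, fewer cells of a type and less RNA per cell cannot be told apart. Of the green-tissue list, 3 of 32 genes had a named probe set: LHB1B2 and LHCB4.1 of the light-harvesting antenna, and RCA, rubisco activase. They stood between 10.05 and 12.37 in every genotype mean. Of the root list, 5 of 19 genes had a named probe set. The root-hair expansins EXPA7 and EXPA18 averaged 3.21 to 3.51. PYK10, a glucosidase abundant in roots, averaged 10.84 in ssrp1-2, 11.31 in spt16-1 and 11.21 in Col-0. The other root glucosidases were BGLU21, with 4.56 ± 0.68 in ssrp1-2, 5.17 ± 0.10 in spt16-1 and 5.33 ± 0.09 in Col-0, and BGLU22, with 4.12 ± 0.33, 4.14 ± 0.17 and 3.85 ± 0.19 in the same genotypes. No green-tissue or root marker passed the limma test described below with all 9 arrays. An unadjusted p under 0.05 was found for 2 of 3 green-tissue and 2 of 5 root markers in ssrp1-2 against Col-0, and all 3 green-tissue markers lay below Col-0, by -0.27 to -0.08. BGLU21 differed by -0.77 between ssrp1-2 and Col-0 (adjusted p = 0.242), and by -1.15 without ssrp1-2 replicate 3 (adjusted p = 0.00838). Between ssrp1-2 and spt16-1, BGLU21 passed without ssrp1-2 replicate 3 (adjusted p = 0.0338) and PYK10 without spt16-1 replicate 2 (adjusted p = 0.0330), both lower in ssrp1-2. The part of green or root tissue in the results was not tested.

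Every member averaged highest in ssrp1-2, intermediate in spt16-1 and lowest in Col-0. In each of the 10 genes, all 3 ssrp1-2 arrays lay above all 3 Col-0 arrays and above all 3 spt16-1 arrays. The median difference was 1.66 on the log2 scale between ssrp1-2 and Col-0, 0.71 between spt16-1 and Col-0 and 1.04 between ssrp1-2 and spt16-1; over all probe sets these medians lay between -0.01 and 0.01. The order of the means was that of 17.8% of all probe sets. Both mutants were set against the same Col-0 arrays, so the first 2 of these differences are not independent of each other.

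**Figure D1:**
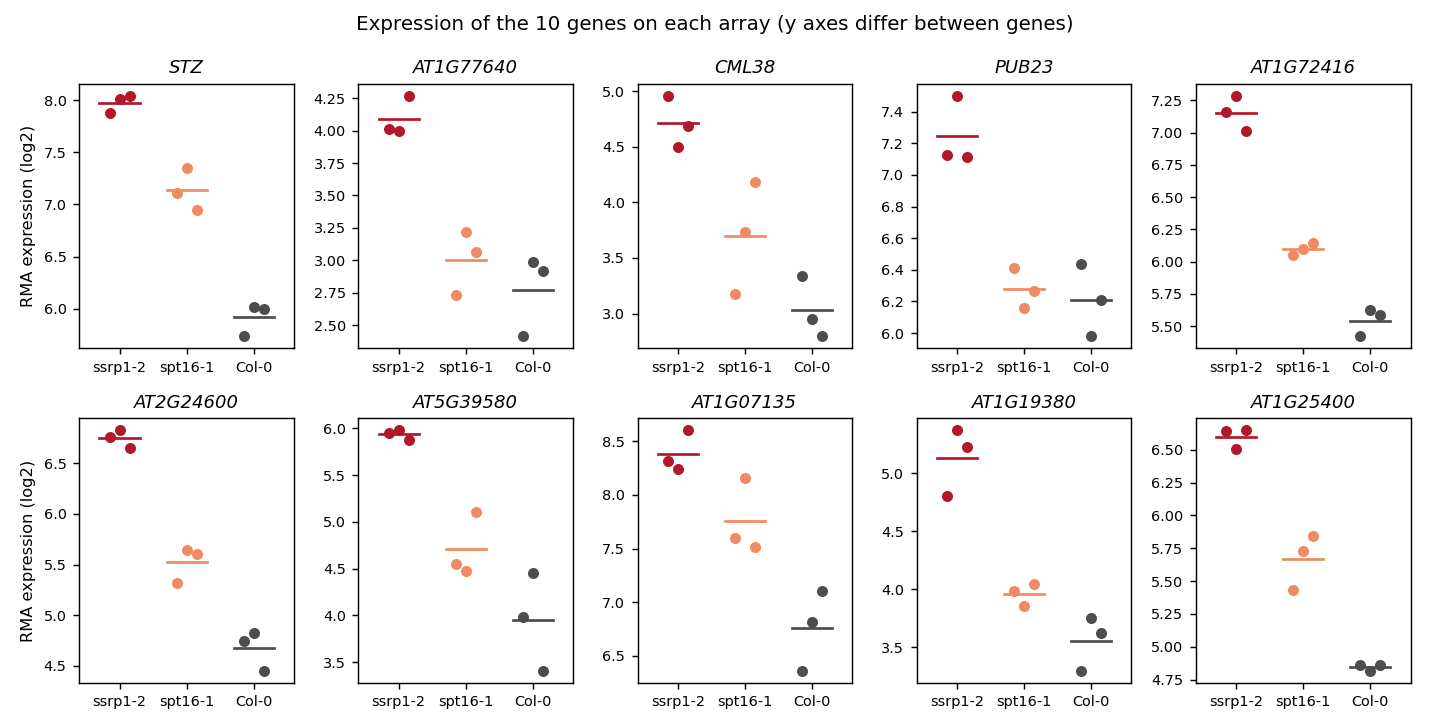
RMA expression (log2, y axis, a separate range for each gene) of the 10 genes on each of the 9 arrays, by genotype (x axis); points are arrays and lines are genotype means. The ssrp1-2 points lie above all others in every panel, and the spt16-1 points overlap those of Col-0 in AT1G77640, CML38 and PUB23.

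Of the 2 regulators of transcription, STZ showed a step at each genotype. STZ, also known as ZAT10, encodes a zinc finger repressor of abiotic stress responses. Its level was 7.88, 8.01 and 8.05 on the ssrp1-2 arrays, 7.11, 7.35 and 6.95 on the spt16-1 arrays and 5.74, 6.02 and 6.0 on the Col-0 arrays. The 3 genotypes did not overlap. STZ was 4.17-fold higher in ssrp1-2 than in Col-0 (log2 difference 2.06, SE 0.12) and 2.33-fold higher in spt16-1 than in Col-0 (1.22, SE 0.12). AT1G77640, which encodes a protein of the ERF and DREB family, had 4.01, 3.99 and 4.27 in ssrp1-2, 2.73, 3.22 and 3.06 in spt16-1 and 2.42, 2.98 and 2.91 in Col-0. Here spt16-1 and Col-0 overlapped, with a difference of 0.23 (SE 0.18), and ssrp1-2 stood above both. The Col-0 and spt16-1 means of AT1G77640 lie in the lowest 25% of values, so the size of its difference between ssrp1-2 and Col-0 (1.32, SE 0.18) is uncertain.

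CML38 and PUB23 act in calcium sensing and in protein turnover. CML38 encodes a calmodulin-like calcium-binding protein. It had 4.96, 4.50 and 4.69 in ssrp1-2, 3.17, 3.73 and 4.18 in spt16-1 and 3.33, 2.95 and 2.80 in Col-0. The spt16-1 arrays of CML38 were the most scattered of any member in that genotype (SD 0.51, n = 3), and replicate 1 fell within the Col-0 range. The difference between ssrp1-2 and Col-0 was 1.69 (SE 0.25), against a Col-0 mean of 3.03 that is within the lowest 25%. PUB23 encodes a U-box ubiquitin ligase known to dampen immune and drought responses. PUB23 had 7.12, 7.50 and 7.12 in ssrp1-2, 6.41, 6.16 and 6.27 in spt16-1 and 6.44, 5.98 and 6.21 in Col-0. All spt16-1 arrays lay within the Col-0 range of PUB23, and ssrp1-2 was 2.05-fold above Col-0 (1.04, SE 0.14), the smallest such difference among the members.

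AT1G72416 encodes a protein with a DnaJ domain, the part of co-chaperones that engages Hsp70, and AT2G24600 a protein with ankyrin repeats. AT1G72416 had 7.16, 7.29 and 7.02 in ssrp1-2, 6.05, 6.10 and 6.14 in spt16-1 and 5.42, 5.62 and 5.59 in Col-0. The genotypes were separate, 3.05-fold apart between ssrp1-2 and Col-0 (1.61, SE 0.09) and 1.47-fold apart between spt16-1 and Col-0 (0.55, SE 0.09). AT2G24600 had 6.76, 6.82 and 6.65 in ssrp1-2, 5.31, 5.64 and 5.61 in spt16-1 and 4.74, 4.82 and 4.45 in Col-0. The genotypes were again separate. Its 4.21-fold difference between ssrp1-2 and Col-0 (2.07, SE 0.12) was the largest of the 10 members, next to that of STZ, and its difference between spt16-1 and Col-0 was 0.85 (SE 0.12).

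Of the genes for secreted or wall-associated proteins, AT5G39580 encodes a class III peroxidase, an enzyme class that acts on the cell wall, and AT1G07135 a glycine-rich protein. AT5G39580 had 5.95, 5.98 and 5.87 in ssrp1-2, 4.55, 4.48 and 5.10 in spt16-1 and 3.99, 4.46 and 3.41 in Col-0. Its ssrp1-2 arrays agreed closely (SD 0.05), whereas its Col-0 arrays had the widest spread of any member (SD 0.53), and the lowest spt16-1 value lay just above the highest Col-0 value. ssrp1-2 stood 3.95-fold above Col-0 (1.98, SE 0.25). AT1G07135 had 8.32, 8.24 and 8.60 in ssrp1-2, 7.60, 8.16 and 7.52 in spt16-1 and 6.36, 6.81 and 7.10 in Col-0. It was the member in which ssrp1-2 and spt16-1 were closest, 0.63 apart (SE 0.22), and spt16-1 replicate 2 came within 0.1 of the lowest ssrp1-2 array. spt16-1 stood 1.00 above Col-0 (SE 0.22), second to STZ.

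AT1G19380 and AT1G25400 encode proteins with no assigned function. AT1G19380 had 4.80, 5.37 and 5.23 in ssrp1-2, 3.98, 3.85 and 4.05 in spt16-1 and 3.30, 3.75 and 3.62 in Col-0. The spt16-1 values were above the Col-0 values by a narrow margin, with a difference of 0.41 (SE 0.16), and ssrp1-2 was 2.98-fold above Col-0 (1.58, SE 0.16). AT1G25400 had 6.65, 6.50 and 6.65 in ssrp1-2, 5.43, 5.73 and 5.84 in spt16-1 and 4.86, 4.82 and 4.86 in Col-0. The Col-0 arrays of AT1G25400 were nearly equal (SD 0.03), and the differences from Col-0 were 1.75 in ssrp1-2 and 0.82 in spt16-1 (SE 0.11 each).

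**Figure D2:**
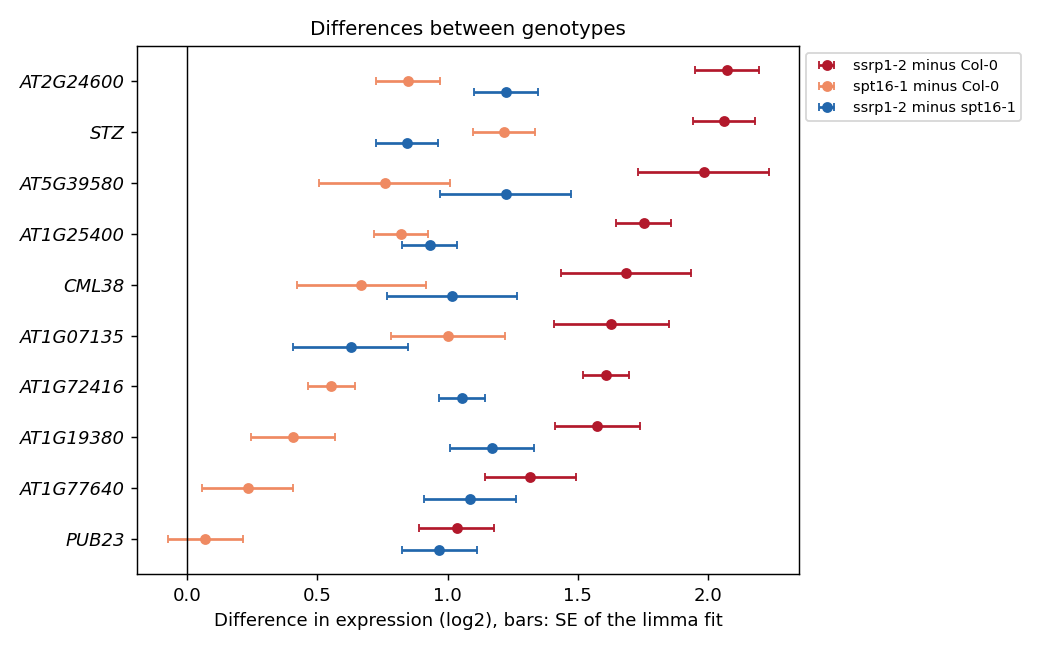
Differences in expression (log2, x axis) of the 10 genes (y axis, ordered by ssrp1-2 minus Col-0) for 3 pairs of genotypes; points are differences of means of 3 arrays and bars are SEs of the limma fit. The differences between ssrp1-2 and Col-0 run between 1.04 (PUB23) and 2.07 (AT2G24600), and those between spt16-1 and Col-0 between 0.07 (PUB23) and 1.22 (STZ).

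The members differed more in how far spt16-1 stood from Col-0 than in how far ssrp1-2 stood from spt16-1. Relative to Col-0, spt16-1 ranged between 0.07 and 1.22, and for PUB23, AT1G77640 and CML38 the spt16-1 arrays overlapped those of Col-0. The other 7 members, STZ, AT1G72416, AT2G24600, AT5G39580, AT1G07135, AT1G19380 and AT1G25400, had all genotypes separate, an arrangement in the order ssrp1-2, spt16-1, Col-0 that 0.712% of all probe sets showed. The separation of all 3 ssrp1-2 arrays above all 3 Col-0 arrays was found in 9.37% of probe sets, that of ssrp1-2 above spt16-1 in 8.27% and that of spt16-1 above Col-0 in 8.53%. Since the members were chosen for standing high, nothing is read from their counts against these shares.

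In the limma fit over all probe sets, with Benjamini-Hochberg adjustment and a threshold of 0.05, 10 of the 10 members were among the higher probe sets of ssrp1-2 against Col-0, where 1.74% of all probe sets were called higher and 2.58% were called in either direction. Against Col-0, spt16-1 had 4 members called (STZ, AT1G72416, AT2G24600 and AT1G25400), where 1.21% of all were called higher and 2.02% in either direction. Between ssrp1-2 and spt16-1, 7 members were called, all except CML38, AT5G39580 and AT1G07135, where 0.519% of all were called higher and 0.835% in either direction. As the members were chosen with these contrasts known, nothing is read from these counts. The last count was 3 without ssrp1-2 replicate 2 or 3 or spt16-1 replicate 1 or 3, 4 without spt16-1 replicate 2, and 2 when these genotypes were fitted alone. The spt16-1 count was 2 without spt16-1 replicate 2. The ssrp1-2 count stayed at 10 in each of these fits.

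The members also varied among arrays of the same genotype. The median SD of the 10 genes was 0.145 in ssrp1-2, 0.206 in spt16-1 and 0.231 in Col-0. Probe sets within the members' range of levels had median SDs of 0.107, 0.114 and 0.132 in the same genotypes. The members above that median, which by its definition 50% of those probe sets exceed, numbered 6, 8 and 8 of 10 in ssrp1-2, spt16-1 and Col-0. With 3 arrays a genotype, these SDs are themselves imprecise. The choice of members used the same arrays, so the difference in spread was not tested.

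Within spt16-1, most members lay low on the same array. On spt16-1 replicate 1, 8 of 10 genes lay below their spt16-1 mean, with a mean deviation of -0.15, against 0.06 and 0.09 on replicates 2 and 3. The mean deviations were between -0.04 and 0.02 on the ssrp1-2 arrays and between -0.07 and 0.10 on the Col-0 arrays. On spt16-1 replicate 1 the mean deviation was -0.01 over all probe sets and -0.02 over 79 of the listed genes described below. Probe sets below their own mean on that array were not counted, and the low array was not tested. Relative to the Col-0 mean, the 10 genes averaged 1.64, 1.70 and 1.69 on the ssrp1-2 arrays and 0.51, 0.72 and 0.75 on the spt16-1 arrays. The gap between the mutants was thus larger than the range among arrays of either.

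**Figure D3:**
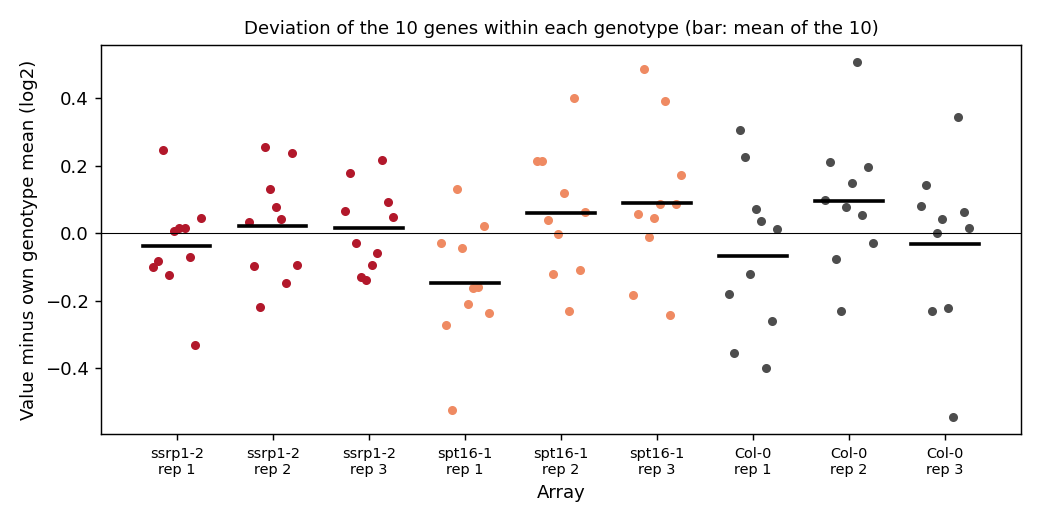
Value of each of the 10 genes minus its own genotype mean (log2, y axis) on each array (x axis); points are genes and bars are means of the 10. The bar for spt16-1 replicate 1 lies lowest, at -0.15, and that for Col-0 replicate 2 highest, at 0.10.

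Other rapidly induced genes were examined for the same comparisons, in 8 lists of response genes and 1 of class III peroxidases. The lists were made with earlier results of these data known. Their counts are therefore a description and are no evidence about rapid response genes as a class. The lists held 284 genes other than the members, and 116 of them had a probe set named for that gene alone. Only these are called measured, and the others may lie on probe sets with no gene name or with several. Of the 116, 37 averaged under 3.13 in every genotype, where a lack of change was not shown. In ssrp1-2 against Col-0, 12 of 116 rose and 0 fell, with a median log2 difference of 0.12 against 0.00 over all probe sets, of which 1.74% were called higher. An unadjusted p under 0.05 was found for 34 of 116 (29.3%), against 14.4% of all probe sets. In spt16-1 against Col-0, 4 of 116 rose and 0 fell, with a median of 0.03, where 1.21% of all probe sets were called higher. The 18 with an unadjusted p under 0.05 (15.5%) stood against 12.6% of all probe sets, a share near the background for the list with its dim genes. All 18 were among the 79 listed genes that averaged at least 3.13 in any genotype (22.8% of these). A gene can reach that level through the genotype in which it is high. The share of all probe sets also includes dim ones, and no share was taken for them at that level. Nothing is therefore read from the 22.8%. Between ssrp1-2 and spt16-1, 3 were higher in ssrp1-2 and 0 lower, with a median of 0.08, where 0.519% of all probe sets were called higher. Here 28 had an unadjusted p under 0.05 (24.1%), against 12.0% of all probe sets. Of all probe sets, 0.839%, 0.807% and 0.316% were called lower in these comparisons. With ssrp1-2 replicate 1 or 3 left out, 6 or 5 of these genes rose in ssrp1-2. With Col-0 replicate 1 left out 5 rose, and with Col-0 replicate 2 or 3 left out 6 rose. The 4 calls of spt16-1 numbered 2 without any 1 spt16-1 array or without Col-0 replicate 1 or 3, and the 3 calls between the mutants numbered 1 without any 1 ssrp1-2 array or without spt16-1 replicate 3.

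Genes of the same families as the members are given by list. Of all probe sets, 1.74%, 1.21% and 0.519% were called higher in ssrp1-2 against Col-0, spt16-1 against Col-0 and ssrp1-2 against spt16-1. Called in either direction were 2.58%, 2.02% and 0.835%. An unadjusted p under 0.05 was found for 14.4%, 12.6% and 12.0% of them. The lists are small and were made with earlier results known, so nothing is read from their counts. Among the 8 measured stress zinc fingers other than STZ, 0 passed in any comparison by limma, with an unadjusted p under 0.05 in 2 for ssrp1-2 against Col-0, 0 for spt16-1 against Col-0 and 4 between the mutants. ZAT7, a relative of STZ, averaged 4.17 ± 0.63 in ssrp1-2, 3.03 ± 0.39 in spt16-1 and 2.73 ± 0.35 in Col-0 (SD, n = 3), a difference of 1.44 between ssrp1-2 and Col-0 that did not pass (limma adjusted p = 0.0590). AT3G46080, AT2G28200 and AT2G45120, other zinc fingers, had 0.48, 0.26 and -0.27 in ssrp1-2 and 0.32, -0.28 and 0.17 in spt16-1 relative to Col-0, and AT3G53600, at a Col-0 level within the lowest 25%, had 0.27 and -0.04 (none passed). Of 8 measured ERF and DREB genes other than AT1G77640, AT1G33760 rose in ssrp1-2, to 5.32 ± 0.19 against 4.27 ± 0.21 in Col-0 (limma adjusted p = 0.0400). Its call was lost without any 1 ssrp1-2 or Col-0 array or spt16-1 replicate 3 (adjusted p up to 0.134). Of the other 7 ERF and DREB genes, 5 averaged under 3.13 in every genotype, and ORA47, an activator of jasmonate synthesis genes, had 0.28 in ssrp1-2 and 0.07 in spt16-1 relative to Col-0 (neither passed). AT1G44830, AT1G22810 and AT1G71520, all dim, had 0.43, -0.13 and -0.05 in ssrp1-2 and 0.35, -0.12 and -0.06 in spt16-1.

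In the touch and calmodulin-like list, 1 of 19 measured genes rose in ssrp1-2 and 0 in spt16-1. That gene, AT3G10300, stood at 5.47 ± 0.20 in ssrp1-2 and 4.91 ± 0.06 in Col-0 (limma adjusted p = 0.0249), a call lost without any 1 Col-0 array (adjusted p up to 0.0863). In spt16-1 AT3G10300 had 0.36 relative to Col-0 (adjusted p = 0.142), and 0.19 separated the mutants (adjusted p = 0.505). AT1G76640, the calmodulin-like neighbour of CML38 and singled out after the values were seen, differed from Col-0 by 0.04 in ssrp1-2 and 0.01 in spt16-1, at a Col-0 level within the lowest 25%. AT3G25600 and AT5G04170 had 0.47 and 0.19 in ssrp1-2 and 0.13 and 0.38 in spt16-1 relative to Col-0, and AT1G62820 and the dim AT3G03000 had -0.09 and 0.30 in ssrp1-2 and -0.16 and 0.03 in spt16-1 (none passed).

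Among 11 ubiquitin ligase genes 0 passed in any comparison by limma. An unadjusted p under 0.05 was found for 2 in ssrp1-2 against Col-0, of which PUB22 was above and AT5G09800 below Col-0, for 2 in spt16-1 against Col-0, PUB26 and AT3G49810, both below Col-0, and for 3 between the mutants. In spt16-1, 9 of the 11 lay below Col-0, as did 14667 of all 28501 probe sets. PUB22, which acts with PUB23 in immune signalling, averaged 4.30 ± 0.12 in ssrp1-2, 3.84 ± 0.20 in spt16-1 and 3.87 ± 0.06 in Col-0 (0.43 for ssrp1-2 against Col-0, adjusted p = 0.0927). PUB24 had 0.27 in ssrp1-2 (adjusted p = 0.486) and AT5G09800, at a Col-0 level within the lowest 25%, -0.29 (adjusted p = 0.325). In spt16-1, PUB26 had -0.30 (adjusted p = 0.256), AT3G49810 -0.22 (adjusted p = 0.377) and AT5G09800 -0.25.

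Among the WRKY transcription factors of defence and stress responses, 2 of 6 measured genes rose in ssrp1-2 and 0 in spt16-1. WRKY47 stood at 6.80 ± 0.07 in ssrp1-2 and 6.10 ± 0.16 in Col-0 (limma adjusted p = 0.00915), and passed without each of the 9 arrays in turn. WRKY29 had 5.62 ± 0.12 in ssrp1-2 and 5.05 ± 0.21 in Col-0 (adjusted p = 0.0314), a call kept only without ssrp1-2 replicate 1 or Col-0 replicate 2. Both were known to be high from earlier results when the list was made. WRKY22, a factor of immune signalling, had 0.64 in ssrp1-2 (adjusted p = 0.0600). In spt16-1, WRKY47, WRKY29 and WRKY42 had 0.41, 0.38 and 0.29 relative to Col-0, and WRKY42 had 0.20 in ssrp1-2 (none of these passed).

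Of 5 measured early elicitor and defence genes, 2 rose in ssrp1-2 and 1 in spt16-1. BIK1, a receptor-associated kinase of immune signalling, stood at 7.01 ± 0.03 in ssrp1-2 and 6.49 ± 0.15 in Col-0 (limma adjusted p = 0.0171), a call lost without any 1 ssrp1-2 array or Col-0 replicate 2 or 3 (up to 0.0693). In spt16-1 BIK1 had 0.29 relative to Col-0 (adjusted p = 0.177), and 0.23 separated the mutants (adjusted p = 0.339). AT2G27080 stood at 4.96 ± 0.13 in ssrp1-2, 3.98 ± 0.28 in spt16-1 and 4.14 ± 0.11 in Col-0, higher in ssrp1-2 than in Col-0 (adjusted p = 0.0185) and than in spt16-1 (adjusted p = 0.0189). The first of these calls was lost without ssrp1-2 replicate 1 or 3 or Col-0 replicate 1 or 2 (up to 0.0748), the second without any 1 ssrp1-2 array or spt16-1 replicate 3 (up to 0.0812). AR781 rose in spt16-1 by 0.40 (adjusted p = 0.0482), a call kept without 1 array alone, ssrp1-2 replicate 2. AR781 had a similar 0.38 in ssrp1-2, which did not pass (adjusted p = 0.0524), and -0.02 between the mutants. In the jasmonate and wound list 2 of 26 genes had a named probe set, and 0 of these passed in any comparison by limma (0 with an unadjusted p under 0.05). AT2G30020 had 0.05 in ssrp1-2 and 0.01 in spt16-1, and the dim PDF1.2 0.12 and 0.25.

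Among 22 measured loci in the list of other rapidly induced genes, 3 rose in ssrp1-2 and 2 in spt16-1. AT3G04640 stood at 5.55 ± 0.08 in ssrp1-2, above both 4.78 ± 0.13 in spt16-1 and 4.67 ± 0.07 in Col-0 (limma adjusted p = 0.00668 against spt16-1 and 0.00129 against Col-0). Both calls held without each of the 9 arrays. AT1G69890 rose in both mutants, with 6.17 ± 0.15 in ssrp1-2, 6.0 ± 0.0012 in spt16-1 and 5.16 ± 0.28 in Col-0 (adjusted p = 0.00594 and 0.0169). The spt16-1 call was lost without any 1 spt16-1 array or Col-0 replicate 1 or 3 (up to 0.0714). For AT1G69890, spt16-1 replicates 2 and 3 had the same value, 6.00104, so the SD of 0.0012 says little about spread. Other named genes also had equal values on arrays of the same genotype. PRXCA had 4.70922 on ssrp1-2 replicates 1 and 3, and WRKY47 had 6.19351 on Col-0 replicates 2 and 3. SDs that rest on such values carry the same limit. AT1G11210 ran in another order, with 3.61 ± 0.07 in ssrp1-2, 4.16 ± 0.26 in spt16-1 and 3.09 ± 0.14 in Col-0, a Col-0 level within the lowest 25%. It rose in spt16-1 (adjusted p = 0.00411), and its difference of -0.55 between ssrp1-2 and spt16-1 did not pass (adjusted p = 0.122). AT5G66650 rose in ssrp1-2 by 0.57 (adjusted p = 0.0429), a call kept without spt16-1 replicate 2 alone. AT4G34150 was higher in ssrp1-2 than in spt16-1 by 0.65 (adjusted p = 0.0419), a call kept without spt16-1 replicate 2 alone. AT2G25735 had 0.69 in ssrp1-2 (adjusted p = 0.0583) and 0.44 in spt16-1, and neither passed.

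Of 35 measured class III peroxidase genes other than AT5G39580, 3 rose in ssrp1-2 and 1 in spt16-1. AT5G58390 stood at 8.20 ± 0.11 in ssrp1-2 and 7.61 ± 0.11 in Col-0 (limma adjusted p = 0.00727), and passed without each of the 9 arrays in turn. PRXCA, a peroxidase of the oxidative burst, stood at 4.69 ± 0.03 in ssrp1-2, 5.03 ± 0.19 in spt16-1 and 4.03 ± 0.25 in Col-0 (adjusted p = 0.0388 and 0.00693); its ssrp1-2 call was kept only without spt16-1 replicate 3 or Col-0 replicate 2. AT2G38390 rose in ssrp1-2 by 0.64 (adjusted p = 0.0450), a call kept without spt16-1 replicate 1 alone. AT2G38390 had 0.56 in spt16-1, which did not pass (adjusted p = 0.0894), and 0.08 between the mutants. PRXCA and AT2G38390 have near relatives in the genome, and shared probes would make their values uncertain. AT1G71695 had 0.27 in both mutants relative to Col-0 (adjusted p = 0.0613 in ssrp1-2 and 0.0724 in spt16-1). The median difference of the 35 genes was 0.04 in ssrp1-2 and 0.03 in spt16-1. In ssrp1-2, 16 of the 35 lay below Col-0, the lowest at -0.61, and in spt16-1 15 did, the lowest at -0.37. Of these, 0 passed. Of all 28501 probe sets, 14295 and 14667 lay below Col-0.

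**Figure D4:**
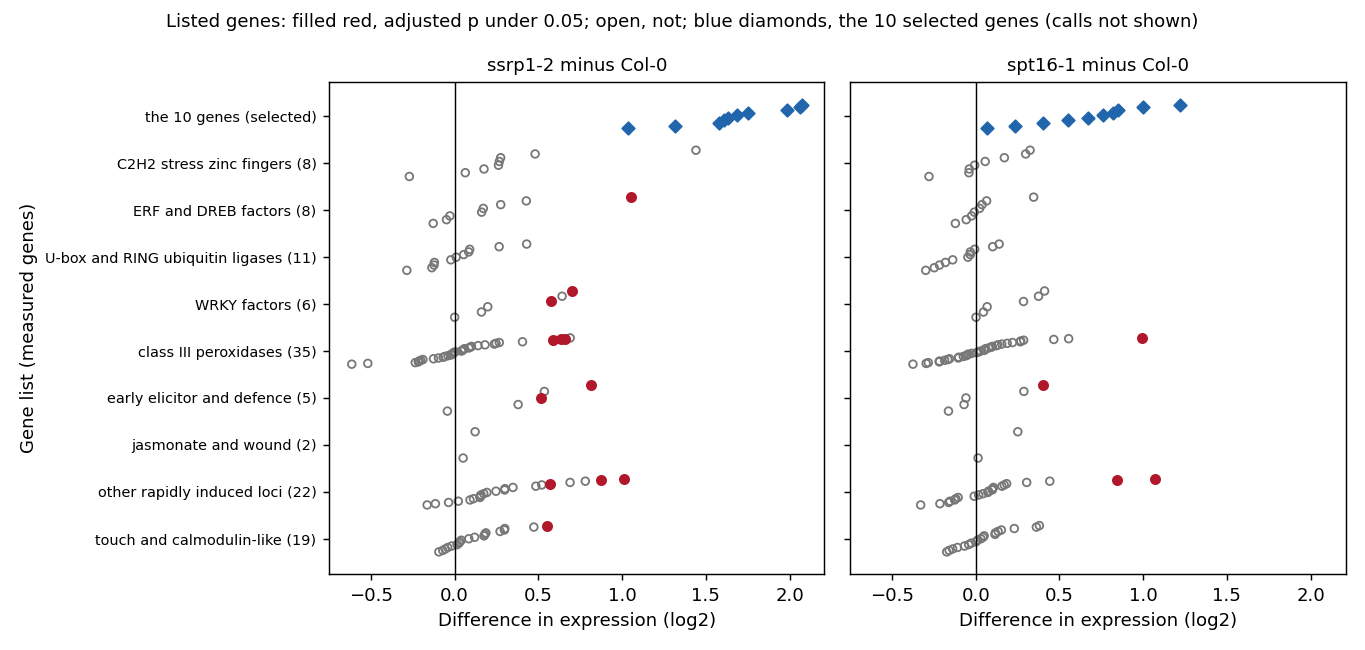
Differences in expression (log2, x axes) in ssrp1-2 (left) and spt16-1 (right) relative to Col-0, by gene list (y axis, number of measured genes in parentheses); filled red points passed at an adjusted p under 0.05, open points did not, and blue diamonds are the 10 selected genes, which are drawn without their calls. In ssrp1-2, 12 of the 116 listed genes are filled and all 12 lie above 0; in spt16-1, 4 are filled.

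The genes next to the members on the chromosome were compared as well, a set chosen after the values of the members were seen. Of 20 immediate protein-coding neighbours in the RefSeq gene order, 10 had 1 named probe set. By limma 0 of the 10 passed in any of the 3 comparisons, where 2.58%, 2.02% and 0.835% of all probe sets were called in either direction. At such shares 10 genes are too few to show a lack of change. An unadjusted p under 0.05 was found in 3 for ssrp1-2 against Col-0, 2 for spt16-1 against Col-0 and 0 between the mutants. Over all probe sets these shares were 14.4%, 12.6% and 12.0%. The median differences of the neighbours were 0.04 in ssrp1-2 against Col-0, 0.07 in spt16-1 against Col-0 and 0.04 between ssrp1-2 and spt16-1. AT1G19370, the neighbour of AT1G19380, had 0.70 in both mutants relative to Col-0 (adjusted p = 0.0567 in ssrp1-2 and 0.0693 in spt16-1) and 0.01 between them. The neighbours of CML38 (AT1G76640 and AT1G76660) and of AT5G39580 (AT5G39570 and AT5G39590) differed from Col-0 by 0.01 to 0.24 in either mutant.

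The 6 genes whose profile over the 9 arrays lay nearest to the mean profile of the members were taken from 16258 candidate genes with 1 probe set. Each gene was expressed relative to its Col-0 mean, and likeness was the root mean square distance over the 9 arrays. AT3G59350 lay nearest, at 0.260, with 6.48 ± 0.09 in ssrp1-2, 5.97 ± 0.17 in spt16-1 and 5.25 ± 0.13 in Col-0. AT3G15630 (0.262), AT5G41750 (0.290), AT3G49160 (0.298), AT2G34930 (0.304) and AT2G43590 (0.312) followed. In these 6 genes ssrp1-2 stood 1.2 to 1.32 above Col-0 and spt16-1 0.40 to 0.79 above Col-0, a choice by values that carries no test. The distances of the members to their own mean ran between 0.109 for AT1G72416 and 0.543 for PUB23, so some members lay farther from the mean profile than these 6 genes.

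**Figure D5:**
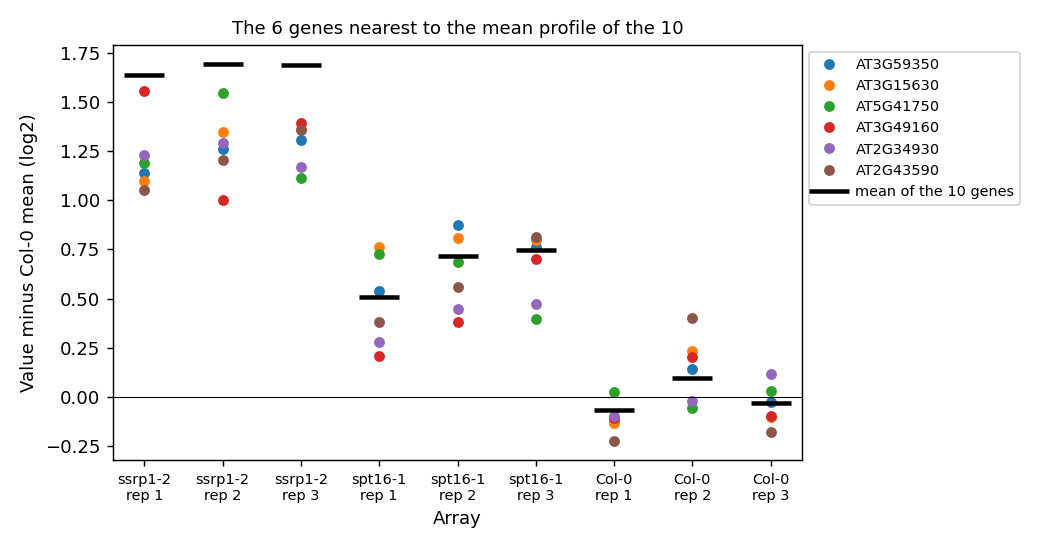
Value minus Col-0 mean (log2, y axis) on each array (x axis) of the 6 genes nearest in profile (coloured points) and the mean of the 10 selected genes (black bars). The mean of the 10 lies at 1.64 to 1.70 on the ssrp1-2 arrays and at 0.51 to 0.75 on the spt16-1 arrays, and the 6 genes lie below it on every ssrp1-2 array.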

How the data were processed

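The deposited log2 values, 1 per probe set and array, come from RMA and Affymetrix Expression Console 1.3, both named in the submitters' processing notes. RMA gives arrays a common distribution, which hides any difference in total RNA. No further scaling was applied. Probe sets were named from GEO's platform annotation, updated through RefSeq gene IDs (TAIR10.1, names and gene order only): 16722 had 1 gene, 759 several and 11020 none. The genotype labels were not checked against SSRP1 and SPT16, which were not analysed here. Protein classes of genes without a symbol are general knowledge of Arabidopsis. Sequences were not used here.

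One limma 3.58.1 fit (R 4.3.3, lmFit and eBayes, two-sided) covered all 9 arrays and 28501 probe sets, with Benjamini-Hochberg adjustment within each comparison. It was tested on simulated data. Errors after ± are SDs. The number of arrays limits the precision. The 10 genes and the lists were chosen with earlier results of these data known. Named genes were the members, per list the 3 genes with the smallest p in each mutant and all that passed, and the 6 nearest profiles. The chromosomal neighbours were chosen after the values were seen. Alternatives included robust moderation, an intensity trend, a replicate block, median and quantile scaling, leaving out the lowest 25% of probe sets, fits of 2 genotypes and leaving out each array. Same-numbered arrays did not deviate together, so the replicate numbers were not used as pairs.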

Additional observations from a re-analysis of the deposited data

How the results depend on the processing

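Of the alternatives that left out no single array, only median and quantile scaling could move the median difference of the 10 genes. The replicate block, intensity trend, robust moderation, filter on dim probe sets and fits of 2 genotypes leave a difference of group means unchanged. They therefore do not test it. Under either scaling it was 1.65 in ssrp1-2 against Col-0 and 0.70 in spt16-1 against Col-0. Between ssrp1-2 and spt16-1 it was 1.04 and 1.03. Both scalings moved it by less than the spread between arrays. Without single arrays it ran from 1.65 to 1.75 in ssrp1-2 against Col-0 and from 0.99 to 1.1 between ssrp1-2 and spt16-1, again within that spread. In spt16-1 against Col-0 it ran from 0.55 to 0.89. There it moved by more without spt16-1 replicate 1 (0.89) or 3 (0.55) or Col-0 replicate 3 (0.56). PUB23 in spt16-1 against Col-0 was -0.05 without Col-0 replicate 2, the only member and setting in which a difference was below 0. The calls over all probe sets, 735, 576 and 238 in these comparisons, became 1190, 1024 and 497 with the intensity trend, 399, 271 and 80 in fits of 2 genotypes alone, and ran from 405 to 625, from 293 to 479 and from 91 to 167 without single arrays. With a replicate block the counts for spt16-1 against Col-0 and for ssrp1-2 against spt16-1 were 380 and 117. Same-numbered arrays had deviations correlated at -0.14 to 0.07 across probe sets over 9 pairs, so the numbers were not taken as pairs. Listed genes that rose numbered 20, 7 and 6 with the intensity trend (12, 4 and 3 without it) and 7, 1 and 1 in fits of 2 genotypes, and 1 with the replicate block between ssrp1-2 and spt16-1. Without single arrays they ran from 5 to 11, from 2 to 4 and from 1 to 4. Listed genes that fell numbered 0 except for 1 between ssrp1-2 and spt16-1 with the intensity trend. For the genes named from the lists, tissue markers included, 2235 values were obtained under an alternative. Of these, 95 lost a call, 32 gained one and 0 turned round. The cause of these changes was not tested, except that fits with fewer arrays have fewer degrees of freedom. The promoter motif counts and their alternative window were not run, since no sequences were used here. The deposited values carry no detection call, so values under 3.13 limit what can be said of dim genes.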
